A study of Homo sapiens with 14 samples.

Results

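The genes described are 9 feedback targets of fibroblast growth factor (FGF) and ERK signalling: SPRY1, SPRY2, SPRY4, SPRED1, SPRED2, DUSP4, DUSP6, ETV4 and ETV5. They were taken as a fixed list of symbols, not by their values. All 9 are among the 58051 genes of the deposited table and all 9 are among the 17102 genes tested, which needed a normalized read count of at least 10 in at least 3 libraries. The smallest value of any of them in any library was 8.23.

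FGF receptors are tyrosine kinases that pass their signal through adaptor proteins to RAS, the RAF and MEK kinases and the kinase ERK. ERK in turn raises transcription of a small set of genes whose products dampen the pathway or carry its output. The Sprouty proteins (SPRY) and the Sprouty-related SPRED proteins restrain the pathway around RAS and RAF, the dual-specificity phosphatases DUSP4 and DUSP6 remove phosphate from MAP kinases, and ETV4 and ETV5 are ETS-family transcription factors of the PEA3 group. Transcripts of these genes are widely read as a record of FGF and ERK activity, and in the mouse forebrain they mark the tissue around sources of FGF8.

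The cells were MGE-like progenitors, which model the medial ganglionic eminence (MGE) in culture. They were derived from H9, a human embryonic stem cell line, and RNA was sequenced on day 25. The 14 libraries form 4 groups. KO cells were CTNNB1 knockouts (n = 5), and CTNNB1 encodes beta-catenin, which carries canonical WNT signals to the nucleus. OE with Dox cells carried an inducible CTNNB1 transgene and were given 0.1 µg/mL doxycycline between day 17 and day 25 (n = 3). OE without Dox cells were the same inducible line with no doxycycline (n = 3). WT cells were wild type (n = 3). All groups received the TGF-beta and BMP inhibitors SB431542 (2 µM) and LDN193189 (200 nM) from day 0 to day 6, and then SHH (250 ng/mL) with the smoothened activator purmorphamine (0.3 µM) from day 10 to day 17. The labels do not state how the knockout was made, which form of CTNNB1 was induced, how many clones were used, or whether libraries of a group came from separate differentiations, so p-values measure the spread between these libraries, which may be technical. Doxycycline was given to no WT library, so effects of the drug and of the transgene cannot be told apart.

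Each library held between 5233270 and 5639725 reads assigned to genes. Values are normalized read counts, that is gene reads divided by 1 size factor per library. CTNNB1 averaged 2383 ± 271 in KO, 27059.8 ± 3820.4 in OE with Dox, 3345 ± 276 in OE without Dox and 3814 ± 573 in WT (SD), and its target AXIN2 averaged 93.4 ± 13.3, 3217 ± 165, 173 ± 25.4 and 275 ± 13.2 in the same order of groups, so CTNNB1 was lower in KO than in WT and higher with Dox than without it, as labelled. The labelled cell type held for the groups to different degrees. The MGE transcription factor NKX2-1 was between 2387 and 3475 in KO, 274 and 910.5 in OE with Dox, 1378 and 2394 in OE without Dox, and 373 and 664 in WT.

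Promoters were taken from the RefSeq table on GRCh38.p14 as the 250 bases before a transcription start, on the gene's own strand. The table held 10 such windows for 6 of the 9 genes (SPRY1, SPRY2, SPRY4, SPRED1, SPRED2 and DUSP6). Shown are the SPRY2 and DUSP6 windows, because SPRY2 and DUSP6 kept their difference with Dox under every alternative tried, and a second SPRY2 start, the only window with TCF/LEF-type letters. A second SPRY1 start, not shown, also held letters of 2 of the 5 motifs searched. Capitals mark the PEA3-type motif AGGAAG, or its reverse complement CTTCCT, and the TCF/LEF-type motif CTTTGAA, here as its reverse complement TTCAAAG. The first window is the MANE Select start of SPRY2 (chr13:80341127-80341376, minus strand, upstream of the gene), the next is another RefSeq start of SPRY2 (chr13:80339660-80339909, minus strand, inside an intron of SPRY2), and the last is the DUSP6 start (chr12:89352502-89352751, minus strand), which also lies in an exon of the unnamed gene ENSG00000274021 on the opposite strand.
SPRY2 MANE Select start: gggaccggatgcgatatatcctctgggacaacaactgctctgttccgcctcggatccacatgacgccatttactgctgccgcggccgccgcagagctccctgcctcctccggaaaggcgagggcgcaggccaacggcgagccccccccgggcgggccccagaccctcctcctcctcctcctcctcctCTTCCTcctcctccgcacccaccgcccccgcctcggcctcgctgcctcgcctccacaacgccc
SPRY2 intronic start: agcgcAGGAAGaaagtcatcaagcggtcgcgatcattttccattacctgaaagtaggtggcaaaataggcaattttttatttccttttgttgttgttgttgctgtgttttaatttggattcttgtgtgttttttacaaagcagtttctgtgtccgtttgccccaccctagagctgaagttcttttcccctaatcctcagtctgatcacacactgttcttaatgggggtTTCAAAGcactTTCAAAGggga
DUSP6 MANE Select start: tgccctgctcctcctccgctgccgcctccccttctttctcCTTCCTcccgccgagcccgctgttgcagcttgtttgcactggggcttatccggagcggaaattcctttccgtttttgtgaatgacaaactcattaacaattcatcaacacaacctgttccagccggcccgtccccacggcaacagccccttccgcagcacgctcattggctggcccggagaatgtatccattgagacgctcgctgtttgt
In the MANE Select window of SPRY2 the PEA3-type letters stand 63 to 58 bases before the start. In the intronic window of SPRY2 they stand 245 to 240 bases before the start, and the TCF/LEF-type letters occur at 22 to 16 and at 11 to 5 bases before it. In DUSP6 the PEA3-type letters stand 210 to 205 bases before the start. The motifs searched on both strands were AGGAAG (PEA3-type, in 28.7% of all 35116 windows of the same length in the table), CCGGAAG (ETS, 8.52%), TGANTCA (AP-1, 6.57%), CTTTGAT or CTTTGAA (TCF/LEF, 5.94%) and TGACGTCA (CRE, 1.65%). AGGAAG occurred in 8 of the 10 windows, the exceptions being that of SPRY4 and that of the MANE Select start of SPRY1. CCGGAAG occurred once, at a second SPRY1 start, TCF/LEF letters only in the intronic SPRY2 window, and AP-1 and CRE letters in no window. The motifs were chosen after the expression values were seen, and a match is a description of letters, not of a bound site.

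A single library of WT and a single library of KO stood apart in these genes, and every result below is given with that in view. WT library 1 had the highest WT value for 9 of 9 genes, where it is the highest WT library for 37.4% of all genes tested. KO library 2 had the highest KO value for 9 of 9 genes, against 19.7% of all genes tested. Both held at once for 9 of 9 genes and for 13.2% of all genes tested. On the log2 scale WT library 1 exceeded the mean of the other WT libraries by a median of 1.40 over the 9 genes (0.91 to 2.45), and KO library 2 exceeded the other KO libraries by a median of 1.23 (0.40 to 2.72). The read totals of these libraries, 5489674 and 5428031, were within the range of the others. In the opposite direction, OE with Dox library 1 was the lowest of its group for 8 of 9 genes, against 34.1% of all genes tested, and WT library 2 was the lowest WT library for 8 of 9, against 28.4% of all genes tested.

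**Figure D1:**
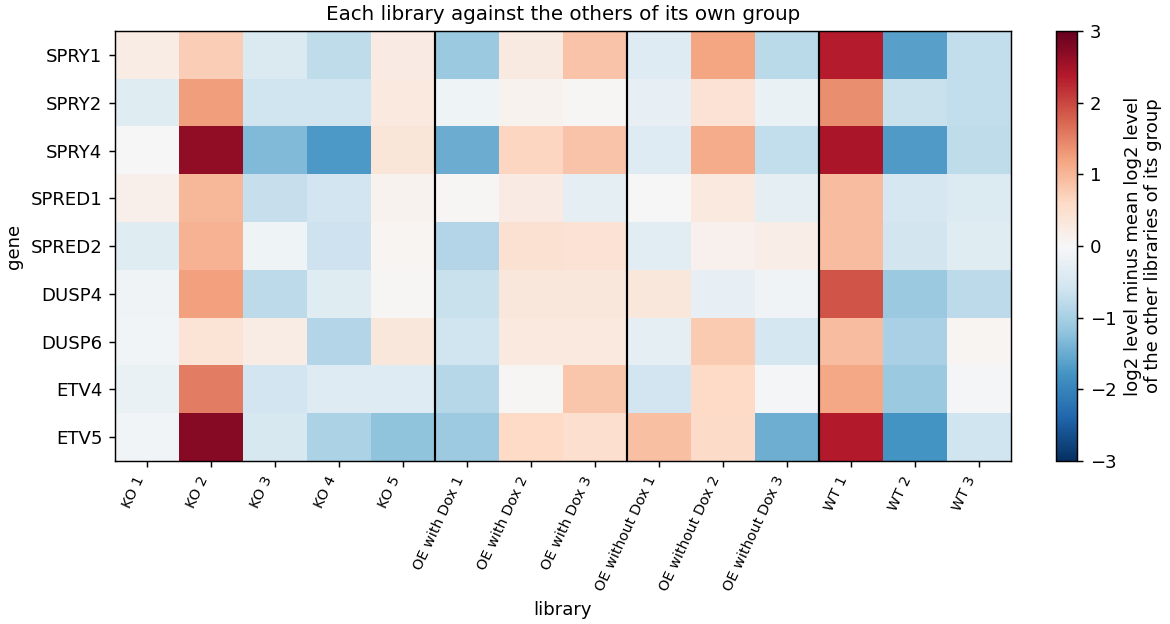
Difference of each library (columns, grouped as KO, OE with Dox, OE without Dox and WT) from the mean of the other libraries of its own group, on the log2(normalized read count + 1) scale, for the 9 genes (rows). The columns of KO library 2 and WT library 1 are red for all 9 genes, and the largest excess is 2.72, for ETV5 in KO library 2.

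With doxycycline most of the feedback genes were higher. In OE with Dox against OE without Dox, 6 of 9 genes rose and none fell, where 12.8% of all genes tested rose and 12.9% fell. The 6 were SPRY1, SPRY2, SPRY4, DUSP6, ETV4 and ETV5. With the replicate number as a block SPRY1 and ETV5 lost their calls and SPRED1 gained one. For 8 of 9 genes, all but DUSP4, every OE with Dox library lay above every OE without Dox library, which held for 21.2% of all genes tested. The median log2 fold over the 9 genes was 1.89, against 0.02 over all genes tested. In KO against WT, by contrast, only ETV4 fell and no gene rose, where 7.15% of all genes tested fell and 6.64% rose, and the median log2 fold of the 9 genes was 0.20, against -0.02 over all genes. The KO and WT libraries overlapped for 9 of 9 genes, where 8.61% of all genes tested lay wholly higher and 9.53% wholly lower in KO. Tests are limma on log2(normalized read count + 1) with Benjamini-Hochberg adjustment over all 17102 genes, a gene rose or fell where its adjusted p was under 0.05, and folds on this scale understate the change of low genes.

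**Figure D2:**
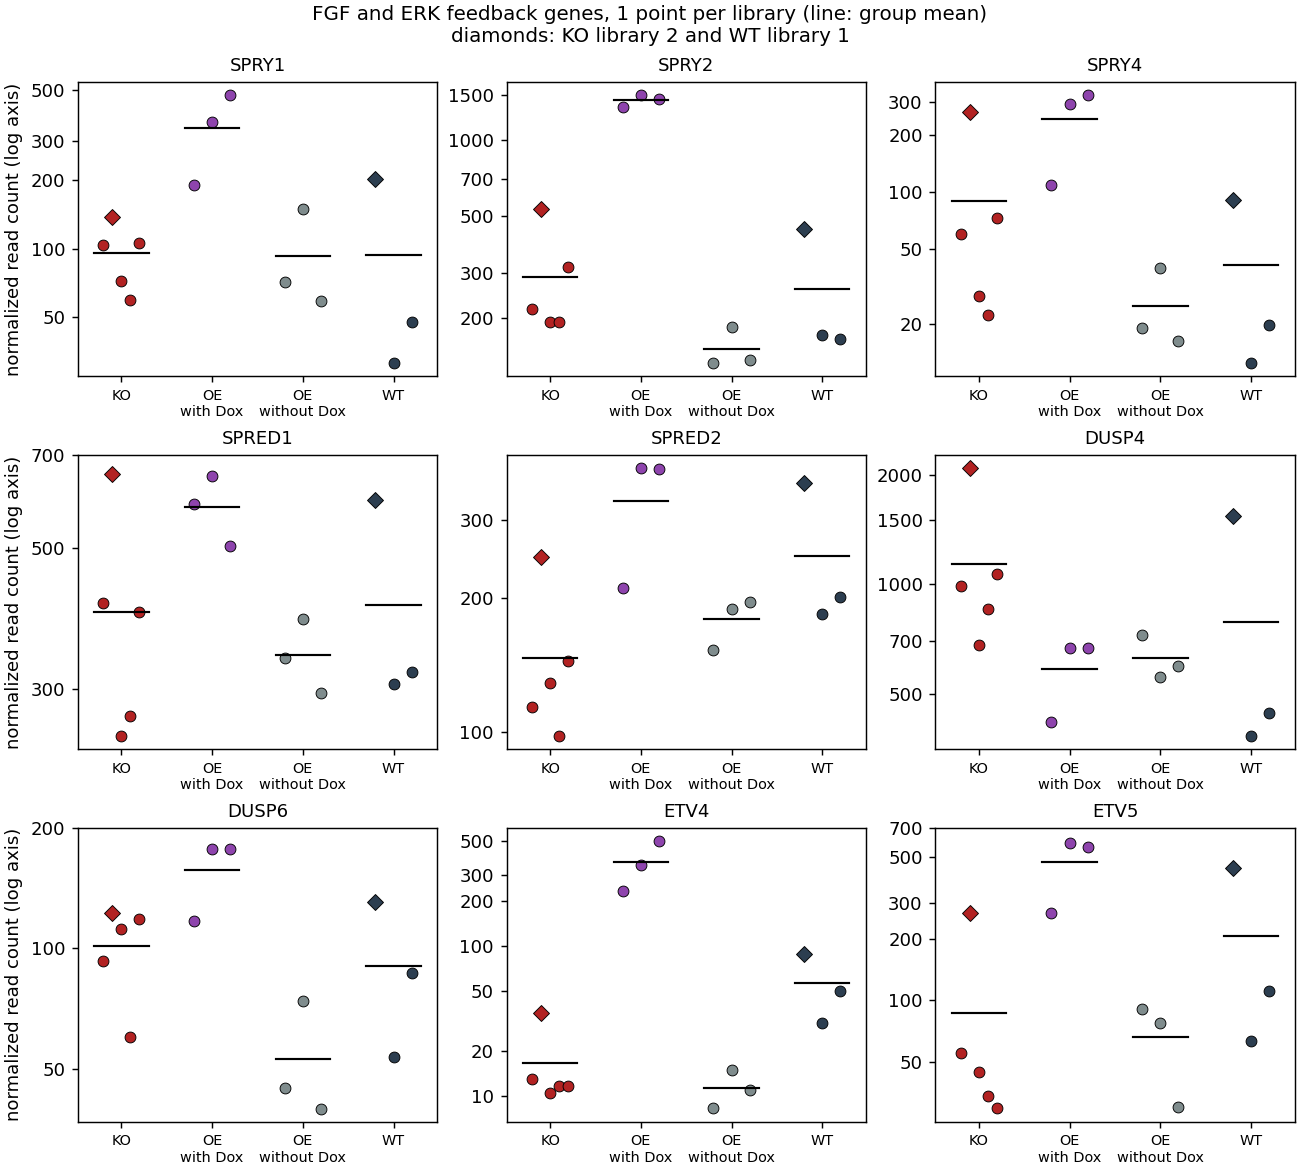
Normalized read count (log axis) of each of the 9 genes in every library, 1 point per library, with a line at the group mean, for KO, OE with Dox, OE without Dox and WT. Diamonds mark KO library 2 and WT library 1, which are the highest of their groups in all 9 panels, and the OE with Dox points lie above all OE without Dox points in every panel but that of DUSP4.

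The Sprouty genes encode cytoplasmic inhibitors that are switched on by receptor tyrosine kinase signalling and act back on it. SPRY1 (chromosome 4, 123396795 to 123403760, plus strand, hg38) had 190.2, 361 and 475 normalized reads in OE with Dox, against 71.3, 149 and 58.9 in OE without Dox. Every OE with Dox library was above every OE without Dox library, and the log2 fold was 1.89 (SE 0.60, adjusted p = 0.035). This call was lost with the replicate number as a block (adjusted p = 0.1), with no filter on low values, and when OE with Dox library 2 or 3 or OE without Dox library 1 or 3 was left out. KO libraries had 103, 138, 71.8, 59.3 and 106, against 203, 31.3 and 47.6 in WT. The KO libraries lay between the WT libraries, with a log2 fold of 0.44 (SE 0.54, adjusted p = 0.7).

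SPRY2 (chromosome 13, 80335976 to 80341126, minus strand) had 1339.9, 1489 and 1441 in OE with Dox, against 134, 184 and 137 in OE without Dox. The OE with Dox libraries were close together, their mean of 1423 ± 76.0 was 9.39 times the 152 ± 28.3 in OE without Dox, and the log2 fold was 3.24 (SE 0.39, adjusted p = 2.1e-05). The KO values of SPRY2 were 218, 534, 193, 193 and 317, against 446, 172 and 165 in WT. The high values on both sides were those of KO library 2 and WT library 1, the groups overlapped, and the log2 fold was 0.20 (SE 0.35, adjusted p = 0.8). Without these 2 libraries the KO fold of SPRY2 was 0.42 (adjusted p = 0.2).

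SPRY4 (chromosome 5, 142310427 to 142326455, minus strand) was the lowest of the 3 listed Sprouty genes per kilobase of exons in every group. It had 109.9, 295 and 325 in OE with Dox, against 19.2, 39.8 and 16.3 in OE without Dox, with no overlap. Its log2 fold was 3.18 (SE 0.91, adjusted p = 0.023), and the call was lost with no filter and without the same libraries as that of SPRY1. KO libraries of SPRY4 spread widely, with 60.04, 265, 28.3, 22.5 and 73.4 in KO, against 90.9, 12.5 and 19.9 in WT. The log2 fold in KO of 1.04 did not pass (SE 0.82, adjusted p = 0.5), and without KO library 2 and WT library 1 it was 1.32 (adjusted p = 0.15).

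The SPRED genes had the smallest positive folds with doxycycline. SPRED1 (chromosome 15, 38252836 to 38357249, plus strand), whose protein brings the RAS inactivator neurofibromin to the membrane, had 585, 649 and 504 in OE with Dox, against 336, 387 and 296 in OE without Dox. The groups did not overlap, but the log2 fold of 0.77 did not pass (SE 0.30, adjusted p = 0.075). With the replicate number as a block its adjusted p was 0.045, and in a fit of the compared groups alone it was 0.0035. SPRED1 had 409, 653, 253, 272 and 396 in KO, against 595, 306 and 319 in WT. These values overlapped, and the log2 fold was -0.05 (SE 0.27, adjusted p = 0.94).

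SPRED2 (chromosome 2, 65310851 to 65432637, minus strand), a close relative of SPRED1, had 211, 393 and 392 in OE with Dox, against 153, 189 and 196 in OE without Dox. Again the groups did not overlap and the log2 fold of 0.84 did not pass (SE 0.32, adjusted p = 0.068), while the fit of the compared groups alone gave an adjusted p of 0.027. In KO it had 114, 247, 128, 97.9 and 144, against 364, 184 and 201 in WT. All KO libraries but library 2 lay below all WT libraries. The log2 fold in KO was -0.78 (SE 0.29, adjusted p = 0.093), and with KO library 2 alone left out it was -0.98 (adjusted p = 0.013).

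The phosphatases DUSP4 and DUSP6 differed from each other. DUSP6 (chromosome 12, 89347235 to 89352501, minus strand, with 1105 exon bases shared with ENSG00000274021 on the opposite strand) encodes a cytoplasmic phosphatase selective for ERK. DUSP6 had 117, 177 and 177 in OE with Dox, against 44.8, 74.0 and 39.9 in OE without Dox. The groups did not overlap, and the log2 fold was 1.58 (SE 0.32, adjusted p = 0.0013). DUSP6 was at 93.3, 123, 111, 60.2 and 118 in KO, against 131, 53.6 and 86.6 in WT. The groups overlapped, with a log2 fold of 0.21 (SE 0.29, adjusted p = 0.73).

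DUSP4 (chromosome 8, 29333064 to 29350684, minus strand), a nuclear phosphatase of MAP kinases, was the gene with no difference past the test with doxycycline and with overlapping groups. It had 418, 668 and 669 in OE with Dox, against 727, 558 and 596 in OE without Dox. The log2 fold was -0.12 (SE 0.49, adjusted p = 0.89). In KO it had 992, 2083, 681, 857 and 1070.2, against 1538, 384 and 444 in WT. Each KO library was above WT libraries 2 and 3, and WT library 1 was above all KO libraries but library 2. The log2 fold of 0.72 did not pass with all libraries (SE 0.44, adjusted p = 0.36). Without WT library 1 it was 1.35 (adjusted p = 0.015), and without WT library 1 and KO library 2 it was 1.10 (adjusted p = 0.0023). The absence of a call for DUSP4 in KO with all libraries thus depended on WT library 1.

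Of the PEA3-group transcription factors, ETV4 had the largest log2 fold with doxycycline among the 9 genes. ETV4 (chromosome 17, 43527844 to 43579620, minus strand, with 68 exon bases shared with DHX8 on the opposite strand) had 233, 349 and 504 in OE with Dox, against 8.23, 14.8 and 10.9 in OE without Dox. The means were 362 ± 136 and 11.3 ± 3.31, and the log2 fold was 4.85 (SE 0.44, adjusted p = 2.9e-07). ETV4 was at 12.9, 35.9, 10.4, 11.7 and 11.6 in KO, against 88.0, 30.4 and 50.2 in WT. Only KO library 2 reached into the WT range, and the log2 fold was -1.74 (SE 0.39, adjusted p = 0.0052). This fall held when any 1 library was left out (adjusted p up to 0.039) and without KO library 2 and WT library 1 together (log2 fold -1.67, adjusted p = 0.0023), and was lost with the replicate number as a block (adjusted p = 0.06).

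ETV5 (chromosome 3, 186046314 to 186110318, minus strand, with 164 exon bases shared with DGKG) had 268, 586 and 564 in OE with Dox, against 90.5, 77.7 and 29.9 in OE without Dox. The groups did not overlap, and the log2 fold was 2.88 (SE 0.86, adjusted p = 0.029). The call was lost with the replicate number as a block (adjusted p = 0.059), with no filter, and without the same libraries as for SPRY1. In KO it had 55.4, 267, 44.4, 34.1 and 29.5, against 442, 63.5 and 111 in WT. All KO libraries but library 2 lay below all WT libraries, but the log2 fold of -1.31 did not pass (SE 0.77, adjusted p = 0.34), and without KO library 2 and WT library 1 it was -1.06 (adjusted p = 0.16).

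**Figure D3:**
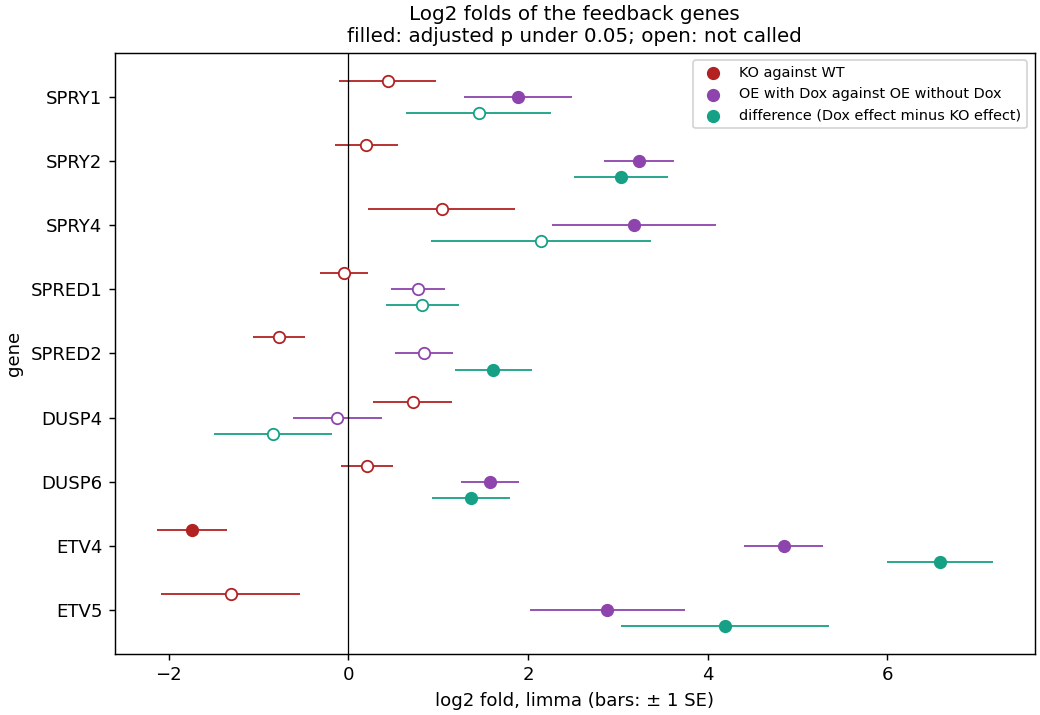
Log2 fold of each of the 9 genes (rows) in KO against WT, in OE with Dox against OE without Dox, and the difference between these effects, with bars of 1 SE, filled where the adjusted p is under 0.05. The Dox points lie right of 0 for all genes but DUSP4, and ETV4 is the only filled KO point.

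The difference between the effects of induction and of knockout was tested as an interaction. The Dox effect exceeded the KO effect for 5 of 9 genes and fell below it for none, where 15.1% of all genes tested were higher and 13.6% lower. ETV4 had the largest difference, 6.59 on the log2 scale (SE 0.59, adjusted p = 2.1e-07). Each effect has its own control, and for ETV4 OE without Dox was itself below WT (log2 fold -2.12), which enters this difference. The difference was 4.19 for ETV5 (SE 1.16, adjusted p = 0.017), 3.04 for SPRY2 (SE 0.52, adjusted p = 0.00047), 1.61 for SPRED2 (SE 0.43, adjusted p = 0.0096) and 1.37 for DUSP6 (SE 0.43, adjusted p = 0.024). For SPRED2 neither the Dox effect nor the KO effect passed by itself. With the replicate number as a block ETV5 (3.62, adjusted p = 0.08) and DUSP6 (1.22, adjusted p = 0.059) were lost. DUSP6 was also lost without WT library 1, OE with Dox library 2 or 3, or OE without Dox library 1 or 3 (adjusted p up to 0.066), and without KO library 2 and WT library 1 together (1.14, adjusted p = 0.057). For DUSP4 the difference was -0.84 (adjusted p = 0.39), and without these libraries -1.22 (adjusted p = 0.0041). SPRY1, SPRY4 and SPRED1 did not pass, with differences of 1.45, 2.15 and 0.82.

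The control groups themselves differed for ETV4. In OE without Dox against WT, ETV4 was the 1 gene of 9 that fell and none rose, where 2.32% of all genes tested fell and 3.43% rose. Its 8.23, 14.8 and 10.9 in OE without Dox lay below the 88.0, 30.4 and 50.2 in WT, with a log2 fold of -2.12 (SE 0.44, adjusted p = 0.0076). Leaving out OE without Dox library 1 gave an adjusted p of 0.051. Set against OE without Dox, the other control, ETV4 in KO did not pass the test (log2 fold 0.38, SE 0.39, adjusted p = 0.93). No gene of the 9 passed in KO against OE without Dox, where 0.351% of all genes tested rose and 1.75% fell. By unadjusted p under 0.05 there were 2, both higher, DUSP6 (log2 fold 0.93, SE 0.29) and SPRY2 (0.83, SE 0.35), where 3.18% of all genes tested were higher by that measure, and edgeR and DESeq2 called 0. The SPRY2 libraries of KO nevertheless all lay above those of OE without Dox, which held for 2.47% of all genes tested, and no gene lay wholly below (4.39% of all genes tested). The DUSP6 difference passed without KO library 4 (adjusted p = 0.048).

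Against the WT control, OE with Dox was higher for 4 of 9 genes and lower for none, where 10.4% of all genes tested rose and 10.1% fell. They were SPRY1 (log2 fold 2.23, SE 0.60, adjusted p = 0.018), SPRY2 (2.60, SE 0.39, adjusted p = 0.00019), SPRY4 (2.90, SE 0.91, adjusted p = 0.043) and ETV4 (2.72, SE 0.44, adjusted p = 0.00017). SPRY2, SPRY4 and ETV4 had no overlap with WT, which held for 16.1% of all genes tested, while SPRY1 in OE with Dox library 1, at 190.2, was below WT library 1, at 203. Without WT library 1 and KO library 2, 7 of 9 passed, SPRED1 (log2 fold 0.88), DUSP6 (1.17) and ETV5 (2.39) being added. With either OE with Dox library 2 or 3, or WT library 2 or 3, left out, only SPRY2 and ETV4 passed. This comparison shares its WT libraries with KO against WT, and its OE with Dox libraries with the Dox comparison.

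Upstream of the feedback genes, FGF ligand transcripts were also higher with doxycycline. Of 22 FGF genes listed 15 were tested, and 9 rose and 2 fell in OE with Dox against OE without Dox, with a median log2 fold of 2.48. Among those that rose, FGF3, FGF4, FGF18 and FGF20 would not have reached the filter without the OE with Dox libraries. The filter thus favours rises in this count and median. Over all genes tested 12.8% rose and 12.9% fell, with a median of 0.02. FGF17, which belongs to the FGF8 subfamily of secreted ligands, had 1166, 1310.4 and 1536 in OE with Dox, against 16.5, 34.2 and 29.0 in OE without Dox (log2 fold 5.65, SE 0.32, adjusted p = 6.2e-10). FGF18, of the same subfamily, had 276, 198 and 265, against 9.14, 8.33 and 8.16 in the same order of groups (log2 fold 4.68, SE 0.44, adjusted p = 3e-07). FGF20, a secreted ligand of the FGF9 subfamily, had 501, 979.6 and 575 in OE with Dox and no read in OE without Dox, which with a floor of 3 reads per library is at least 249.6-fold higher. FGF12, an intracellular FGF homologous factor and not a receptor ligand of the usual kind, averaged 252 ± 49.7 in OE with Dox and 43.9 ± 2.50 in OE without Dox (log2 fold 2.48, SE 0.21, adjusted p = 8.2e-08). FGF8 and FGF19 were picked after their values were seen: FGF8 averaged 1414 ± 656 and 32.5 ± 25.6 (log2 fold 5.57, SE 0.81, adjusted p = 0.00023), and the endocrine ligand FGF19 averaged 344 ± 71.7 and 35.2 ± 12.4 (log2 fold 3.30, SE 0.40, adjusted p = 5.7e-06).

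In KO against WT, 3 of the 15 tested FGF genes rose and 2 fell, with a median log2 fold of 0.09. Over all genes tested 6.64% rose and 7.15% fell. The 3 that rose were FGF17 and the intracellular FGF homologous factors FGF13 (log2 fold 1.25) and FGF14 (2.67). FGF13 (1.13) and FGF14 (2.58) also rose in OE without Dox against WT, where FGF17 (1.05) did not pass. Set against OE without Dox, KO did not pass for FGF13 (0.13), FGF14 (0.09) or FGF17 (-0.004). The genes that fell, FGF18 (-2.05) and FGF19 (-2.35), were lower in KO against that control as well. FGF18 had 0, 1.89, 1.89, 1.80 and 1.79 in KO, against 28.4, 8.94 and 12.1 in WT, so that all KO values were under the floor of 3 reads. FGF17 rose at low levels (log2 fold 1.05, SE 0.28, adjusted p = 0.017), 26.6 ± 9.06 in KO and 12.1 ± 3.65 in WT, and was lost with the replicate number as a block and without WT library 2 or 3. The ligand FGF19, again picked after its values were seen, averaged 6.08 ± 2.39 in KO and 53.4 ± 24.6 in WT.

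FGF receptors went the other way with doxycycline. Of 7 receptor and co-receptor genes listed 5 were tested, and 4 fell and none rose in OE with Dox against OE without Dox, where 12.9% of all genes tested fell and 12.8% rose. FGFR3 had 97.9, 229.6 and 41.5, against 1186, 1506 and 1096 (log2 fold -3.66, SE 0.42, adjusted p = 2.2e-05). FGFR2 had 48.0, 176 and 41.5, against 854, 574 and 419.7 (log2 fold -3.04, SE 0.45, adjusted p = 0.00022). The decoy-type receptor FGFRL1 (log2 fold -1.04, adjusted p = 0.024) and FGFR4 (-1.36, adjusted p = 0.025) also fell, each losing its call when OE with Dox library 3 or OE without Dox library 1 or 3 was left out, FGFR4 also without OE with Dox library 2. FGFR1, at 1703 ± 283 in OE with Dox and 1669 ± 132 in OE without Dox, did not pass the test (log2 fold 0.02, SE 0.14, adjusted p = 0.95). In KO against WT the only called receptor was FGFR3, at 896 ± 97.0 in KO and 2238 ± 251 in WT (log2 fold -1.32, SE 0.37, adjusted p = 0.032). That call was lost in 10 of 19 alternatives, among them leaving out any 1 WT library. Set against OE without Dox, FGFR3 in KO did not pass (log2 fold -0.49, adjusted p = 0.88).

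**Figure D4:**
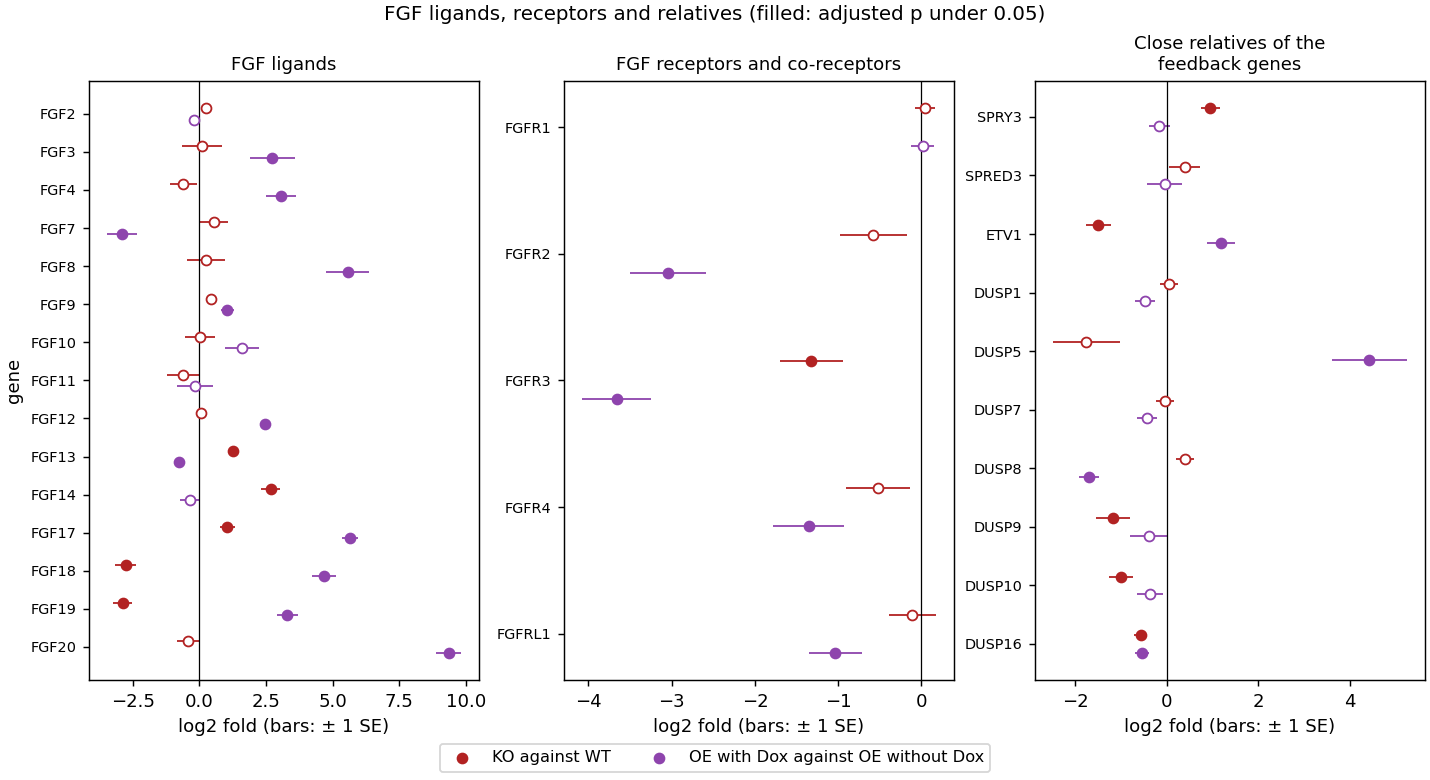
Log2 folds with bars of 1 SE for the tested FGF genes, FGF receptors and close relatives of the feedback genes, in KO against WT and in OE with Dox against OE without Dox, filled where the adjusted p is under 0.05. With Dox 9 of 15 FGF genes lie to the right and filled and 4 of 5 receptors to the left and filled. FGF3, FGF4, FGF18 and FGF20 reached the filter only with the OE with Dox libraries. FGF20 had no read in OE without Dox, so its plotted fold depends on the pseudocount.

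Genes of the relay between receptor and ERK were called about as often as all genes tested. Of 23 genes from adaptor to kinase, 3 rose and 3 fell with doxycycline (12.8% and 12.9% of all genes tested) and 2 rose and none fell in KO (6.64% and 7.15%). The adaptors SHC1 (370.4 ± 88.8 in OE with Dox and 167 ± 17.7 in OE without Dox, log2 fold 1.12, adjusted p = 0.00016) and GRB2 (996 ± 53.3 and 626 ± 6.71, log2 fold 0.67, adjusted p = 0.00022) rose. The scaffold KSR1 fell by 0.90 on the log2 scale with doxycycline (adjusted p = 0.00054), and its relative KSR2 rose by 1.30 in KO (adjusted p = 0.00046). KSR2 also rose in OE without Dox against WT (log2 fold 0.94, adjusted p = 0.032). Its fold in KO against OE without Dox did not pass (0.36, adjusted p = 0.78). Of 12 other receptor tyrosine kinases, 1 rose and 5 fell with doxycycline, and 1 rose and 6 fell in KO. The neuregulin receptor ERBB4 stood at 38.7 ± 8.68 in KO and 693 ± 238 in WT (log2 fold -4.10, adjusted p = 6.5e-10). The neurotrophin receptor NTRK2 fell in both comparisons, with log2 folds of -4.05 in KO and -3.16 with doxycycline. KIT, the receptor of stem cell factor, fell by 1.35 with doxycycline (adjusted p = 0.00021).

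Close relatives of the 9 genes moved in both directions. Of 11 listed 10 were tested, and with doxycycline 2 rose and 2 fell, where 12.8% of all genes tested rose and 12.9% fell. ETV1, the third member of the PEA3 group, averaged 576 ± 159 in OE with Dox and 250.4 ± 55.0 in OE without Dox (log2 fold 1.18, SE 0.31, adjusted p = 0.0094). The nuclear ERK phosphatase DUSP5 had 49.9, 47.4 and 79.3, against 2.74, 0.925 and 1.81 (log2 fold 4.42, SE 0.82, adjusted p = 0.00074), all OE without Dox values being at or under 3 reads. DUSP8, a phosphatase of the stress-activated kinases, fell by 1.70 (SE 0.22, adjusted p = 1.1e-05). In KO against WT, 1 relative rose and 4 fell, where 6.64% of all genes tested rose and 7.15% fell. SPRY3, the Sprouty gene outside the list, averaged 52.5 ± 5.59 in KO and 27.0 ± 5.42 in WT (log2 fold 0.95, SE 0.21, adjusted p = 0.0036), and ETV1 averaged 172 ± 72.6 and 455 ± 9.44 (log2 fold -1.49, SE 0.28, adjusted p = 0.0013). SPRY3 averaged 53.7 in OE without Dox and also rose there against WT (log2 fold 0.98, adjusted p = 0.016). In KO against OE without Dox neither SPRY3 (log2 fold -0.04) nor ETV1 (-0.61, adjusted p = 0.53) passed. Among 11 other ERK-responsive transcripts, 1 rose and 1 fell with doxycycline, near the 12.8% and 12.9% of all genes tested. They were the FGF antagonist IL17RD, which rose by 0.93 (adjusted p = 0.0007), and the ephrin receptor EPHA4, which fell by 0.93 (adjusted p = 0.00083). In KO the cell cycle gene CCND1 fell by 1.31 (adjusted p = 0.00032) and FLRT3, a membrane protein that binds FGF receptors, fell by 1.09 (adjusted p = 0.0034). CCND1 also fell in OE without Dox against WT (log2 fold -0.89, adjusted p = 0.033). In KO against OE without Dox, CCND1 did not pass (-0.42, adjusted p = 0.63), while FLRT3 fell (-1.31, adjusted p = 0.0039). None of these 11 rose in KO, where 6.64% of all genes tested rose and 7.15% fell.

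Markers of cell types moved with the same comparisons. Of all genes tested 12.8% rose and 12.9% fell with doxycycline. The 9 MGE progenitor markers summed to between 1784 and 2705 in OE with Dox and 6584 and 10388 in OE without Dox, and 8 of 9 fell. The 8 neuronal markers summed to between 5134 and 5845 in OE with Dox and 15948 and 17982 in OE without Dox, and 7 fell and 1 rose. The 7 mesenchyme markers summed to 4476, 6498 and 1407 in OE with Dox libraries 1, 2 and 3 and to 337, 1768 and 362 in the OE without Dox libraries, and 4 rose. None of these markers was at 0 throughout a group. Of the 5 neural crest markers, SOX10 was at 0 in all 14 libraries. The 5 together summed to between 46.2 and 117 in OE with Dox and 35.7 and 77.7 in OE without Dox. Their sums were 8.05 to 9.45 in KO and 32.2 to 97.9 in WT, and the 2 that were tested, TFAP2A and TFAP2B, fell in KO. In KO the MGE markers summed to between 9383 and 11409.5 and the neuronal markers to between 16175 and 19781, against 2641 and 2836 and against 8820 and 10388 in WT. Libraries are bulk samples, in which fewer cells of a type and less RNA per cell cannot be told apart, and the part of these markers in the results above was not tested. In the libraries that stood apart, the mesenchyme markers summed to 506 in WT library 1, the lowest of WT, and to 308 in KO library 2, within the KO range of 240.0 to 455. WT library 1 had the highest WT sum of neural progenitor markers (23688, against 19726 and 19847) and of MGE markers (2836). Its pluripotent cell sum was also the highest of WT (888, against 672 and 680), and its neural crest sum the lowest (32.2). Its neuronal and its endothelium and blood sums lay between the other WT sums. KO library 2 had the lowest KO neuronal sum, 16175, and its sums of the remaining lists lay within the KO range. These sums were not tested.

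Per kilobase of annotated exons, which allows levels to be set between genes, the order of the 9 genes changed with the group. DUSP4 led in KO (156), OE without Dox (86.2) and WT (108), in each case followed by SPRY2 (90.6, 47.2 and 81.2 normalized reads per kilobase). In OE with Dox SPRY2 led at 443, then ETV4 at 103, SPRY1 at 86.3, ETV5 at 81.8 and DUSP4 at 80.5. ETV4 was the lowest of the 9 in KO (4.70) and in OE without Dox (3.22), and SPRY4 was the lowest in OE with Dox (37.1) and in WT (6.27). By the length of the longest transcript, the lowest were instead DUSP6 in OE with Dox (43.3) and SPRY4 in OE without Dox (4.69). Most neighbours in these orders did not differ beyond their spread. The gap between neighbours exceeded the larger of their SDs for 1 of 8 pairs in KO (SPRED1 over SPRED2), for 2 in OE with Dox (SPRY2 over ETV4, SPRED2 over DUSP6), for 3 in OE without Dox (DUSP4 over SPRY2, SPRED1 over SPRED2, ETV5 over SPRY4) and for 1 in WT (ETV4 over SPRY4).

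The 9 genes did not share a single pattern over the 14 libraries. As a measure of likeness, the root mean square difference of centred log2 levels over the libraries was smallest between SPRED1 and SPRED2 (0.42) and largest between DUSP4 and ETV4 (2.12), and between ETV4 and ETV5 it was 0.90. Among all other genes with a mean of at least 100, the closest to SPRY2 was ELK1, an ETS-family factor phosphorylated by ERK (0.50), the closest to ETV4 was LMO2 (0.53), to ETV5 AHNAK (0.62), to SPRY1 FKBP14 (0.53), to SPRY4 DACT1 (0.88), to SPRED2 FURIN (0.24) and to DUSP6 SLC35D2 (0.38). ELK1 averaged 145 ± 24.3 in KO, 853 ± 121 in OE with Dox, 139 ± 10.8 in OE without Dox and 155 ± 55.6 in WT. SPRED1 and DUSP4 varied by less than 1 log2 unit between group means and were not compared.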

How the data were processed

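Libraries were prepared with 500 ng total RNA, per the labels. The deposited table holds a signal, normalized read counts, in which the authors scaled the reads of each gene by a size factor of its library. Dividing by that step gave whole reads for 100.0% of values at a tolerance of 0.01. Per the submitters' processing notes, TopHat2 (2.1.1), HTSeq (0.9.1), DESeq2 and R (3.4.0) were used with hg38. The annotation release and strand setting are not given in the sources used here, so reads of overlapping antisense genes cannot be told apart. A floor of 3 reads equals 2.60 to 2.84 normalized reads and covers counting error only, since PCR copies are not independent molecules.

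GENCODE 44 gave names and coordinates. Values were fitted as log2(value + 1) with limma 3.58.1 (R 4.3.3) in 1 model of the 14 libraries in 4 groups, with robust, trended empirical Bayes and 10 residual degrees of freedom. Tests were two-sided with Benjamini-Hochberg adjustment at 0.05 over genes reaching 10 in at least 3 libraries, and the fit was tested on simulated data. Alternatives were count tests of the recovered reads (edgeR 4.0.16; DESeq2 1.42.0), a pseudocount of 0.5 or 5, a filter of 50 or none, TMM scaling (shifts of at most 0.020 on the log2 scale), non-robust empirical Bayes, the replicate number as a block, only the groups compared, and each library left out. Leaving out WT library 1 and KO library 2 together was chosen after seeing the data.

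Libraries of the same replicate number deviated together with correlations between -0.29 and 0.40 over 18 pairs. All 3 pairs exceeded 0.1 for OE with Dox and OE without Dox and for OE without Dox and WT, which is taken as pairing and comes from the data. The main fit does not use this pairing, and the block is an alternative to it. Of all pairs of libraries from different groups the largest correlation, 0.435, was between WT library 1 and KO library 2, whose numbers differ. The genes, lists and motifs were chosen with earlier results of these data known. All 9 genes are named, CTNNB1 and AXIN2 check the labels, and of each other list up to 4 genes called in KO against WT or with Dox are named by adjusted p, with exceptions stated and some genes not reported here. Of the 2 genes the rule takes as most like a feedback gene, the closest is given. Figures and tables came from matplotlib 3.10.9, numpy 2.4.6 and pandas 2.3.3 under Python 3.11.15.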

Additional observations from a re-analysis of the deposited data

Results flagged for a closer look

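KO is the only group of more than 3 libraries, and in it KO library 2 lay far above the other 4 for 4 of the 9 genes, by normalized read counts. The gap to the next library, divided by the range of the group, exceeded 0.71, Dixon's 95% critical value for 5 samples. This ratio was taken on normalized read counts and not on the log2 scale of the other tests, on which fewer genes may pass. SPRY4 was at 265 in KO library 2 and at 73.4 in the next library, a gap of 0.79 of the range. DUSP4 was at 2083, with the next library at 1070.2 (0.723). ETV4 was at 35.9, with the next at 12.9 (0.9), and ETV5 was at 267, with the next at 55.4 (0.891). Chance flags about 1 in 20 groups, and over all genes tested 968, or 5.66%, met the same criterion in KO.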

How the results depend on the processing

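Of the log2 folds of the 9 genes over 6 comparisons and all alternatives, 911 kept direction and call, 19 gained a call, 40 lost one and 38 turned sign, none of these 38 from a called value. Where an alternative moved a count or a sign, the cause was not tested.

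The number of genes of the 9 called higher in OE with Dox against OE without Dox, 6 with all libraries, was 3 with no filter on low values and 3 to 7 with 1 library left out. With the replicate number as a block SPRY1 and ETV5 lost their calls and SPRED1 gained one. In the fit of the compared groups alone SPRED1 and SPRED2 gained calls. SPRY2, DUSP6 and ETV4 were called under every alternative. The number higher in OE with Dox against WT, 4 with all libraries, was 2 with no filter, 2 with the replicate number as a block, 2 in the fit of the compared groups alone, 7 without WT library 1 and KO library 2, and 2 to 6 with 1 library left out. In KO against WT the number higher, 0, was 1 without WT library 1 and KO library 2 and 0 to 1 with 1 library left out. The number lower, 1, was 0 with the block and 1 to 2 with 1 library left out. The Dox effect exceeded the KO effect for 3 genes with the block, for 5 without it, and for 4 to 6 with 1 library left out, and fell below it for 1 gene without WT library 1 and KO library 2 and for 0 to 1 with 1 library left out. In OE without Dox against WT the number lower was 0 to 1, and in KO against OE without Dox the number higher was 0 to 1, with 1 library left out.

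Signs that turned were those of uncalled folds. In KO against WT, SPRED1 was 0.07 with the block and 0.06 without WT library 1 and KO library 2. Without these 2 libraries, OE without Dox against WT gave 0.53 for SPRY4, 0.11 for SPRED1 and 0.59 for DUSP4, KO against OE without Dox gave -0.05 for SPRY1 and -0.05 for SPRED1, and OE with Dox against WT gave 0.47 for DUSP4. With DESeq2, SPRY1 in OE without Dox against WT was at -0.00. In KO against OE without Dox, ETV5 was 0.54 with the block and 0.38 with edgeR and with DESeq2. With 1 library left out, the ranges that crossed 0 in KO against WT were -0.10 to 1.22 for SPRY1, -0.05 to 0.66 for SPRY2, -0.25 to 0.26 for SPRED1 and -0.12 to 0.52 for DUSP6. With Dox against without Dox it was -0.24 to 0.10 for DUSP4. In OE without Dox against WT they were -0.20 to 1.13 for SPRY1, -0.85 to 0.53 for SPRY4, -0.37 to 0.11 for SPRED1 and -0.41 to 0.59 for DUSP4, in KO against OE without Dox -0.17 to 0.49 for SPRY1, -0.05 to 0.29 for SPRED1 and -0.57 to 0.27 for ETV5, and in OE with Dox against WT -0.53 to 0.47 for DUSP4.

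At these depths SPRY4 and ETV4 in OE without Dox rest on 82 and 37 reads over 3 libraries. No fit of the compared groups alone was possible for the interaction, which needs all 4 groups.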

Other observations

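The 9 genes were not alone in being highest in WT library 1 and in KO library 2. These values were looked up after the pattern was seen and carry no test. Among 9354 genes with a mean of at least 100, ranked by the smaller of the gaps that these 2 libraries keep to the next library of their group, ETV5 was at rank 1, DUSP4 at rank 9, SPRED2 at rank 16, SPRY2 at rank 19 and SPRED1 at rank 23, while SPRY1 was at rank 132 and DUSP6 at rank 1147. Genes at ranks between those of ETV5 and DUSP4 were NAB2, a repressor of EGR transcription factors, THBS1, a secreted matrix protein, and the cytoskeletal or adhesion genes VCL, AHNAK, PALLD, CNN2 and AJUBA. NAB2 stood at 312, 1279, 312, 287 and 267 in KO and at 1159.7, 260.1 and 293 in WT. THBS1 stood at 127, 904, 59.5, 106 and 145 in KO and at 871, 141 and 323 in WT. VCL, the focal adhesion protein vinculin, stood at 581, 1781, 268, 332 and 305 in KO and at 2123, 799 and 694 in WT. In OE with Dox NAB2 was at 135, 163 and 156 and THBS1 at 151, 115 and 102, against 277, 264 and 299 and against 145, 77.7 and 161 in OE without Dox.

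Of the other lists, 3 of 5 FGF receptors, 4 of 10 relatives of the feedback genes and 5 of 11 other ERK-responsive transcripts were also highest in both libraries, among them ETV1, DUSP5, CCND1, PHLDA1, EPHA2 and IL17RD, as were 6 of 23 relay genes, 1 of 8 neuronal markers, 1 of 2 pluripotent cell markers and CTNNB1. This held for 13.2% of all genes tested, for none of the 15 tested FGF genes and for none of the 12 other receptor tyrosine kinases. DUSP5 was at 5.54, 23.6, 8.50, 0.898 and 2.68 in KO and at 80.5, 9.83 and 10.4 in WT.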
